A study of Homo sapiens with 6 samples.

Results

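The histone genes of the HIST1, HIST2, HIST3 and HIST4 clusters were read in 6 RNA libraries of Hep G2 cells, a line from a human liver cancer. The members were chosen by gene symbol alone (HIST1H, HIST2H, HIST3H or HIST4H at its start), which took 66 of the 21863 symbols listed. They comprised 6 genes of linker histone H1, 15 of H2A, 20 of H2B, 12 of H3 and 13 of H4, with 55 genes in the HIST1 cluster, 7 in HIST2, 3 in HIST3 and 1 in HIST4. The family was taken up because of its Ago2-IP and total RNA values in these same libraries, so those values are a description and carry no test.

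Ago2-IP RNA, which co-precipitated with an antibody to the miRNA-binding protein Argonaute 2, and total RNA were each sequenced from 3 conditions, with 1 library per group. The sample titles say total RNA, while the deposited columns of that fraction are headed mRNA and the paper calls it mRNA-seq. Poly-A selection is not assigned to either fraction in the methods, and far less RNA went into the Ago2-IP libraries. The first condition was non-transfected Hep G2 cells, entered here as 0 h, a time their titles do not give. The others were cells given 5 nM of a miR-195 mimic for 24 h and cells given 5 nM of a miR-497 mimic for 24 h. The cells without mimic received no control RNA, so the effect of a mimic and that of transfection cannot be told apart. Values were RPKM, reads per kilobase of transcript scaled to the mapped reads of the library, and differences between groups of 1 library had no replicate check. Below, 3 values for a fraction are given in the order non-transfected, miR-195 and miR-497.

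Histones are the proteins around which DNA is wound, with H2A, H2B, H3 and H4 forming the core of the nucleosome and H1 binding the linker DNA between cores. The genes of the HIST clusters are transcribed mainly in S phase, when DNA is copied, and most of their mRNAs end in a stem-loop instead of a poly-A tail, a structure bound by SLBP that governs processing, translation and decay. Histone variants such as H2A.Z and H3.3 are made throughout the cell cycle from separate genes whose mRNAs are polyadenylated.

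The mimics share 1 seed, and the mature human miRNAs they copy (RefSeq, GRCh38.p14) are shown to let the seed be compared with the histone mRNAs. Capitals mark the seed, bases 2 to 8.
hsa-miR-195-5p: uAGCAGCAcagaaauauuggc
hsa-miR-497-5p: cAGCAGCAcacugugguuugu
The complement of that seed, TGCTGCT, was searched in the canonical transcript of the 61 protein-coding members with an annotated position. It was found in the 3′UTR of 1 member, HIST2H2BE, and before the stop codon of 21 members. That 3′UTR has 1801 bases, against a median of 57. Longer annotated transcripts were not searched, and no count over all genes was made. A match of letters is not evidence of a site in use.

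The 3′ stem-loop was searched because it is the structural feature by which these mRNAs differ from other mRNAs. A stem of 6 perfect base pairs around a loop of 4 bases starting with TTT was found in the genome (GRCh37) within 200 bases after the stop codon of 56 of the 61 protein-coding members with an annotated position, from 22 to 62 bases after the stop codon (median 35). There were 5 forms, shown with the stem in capitals and named by the classes that carried them.
Form of 35 genes (4 H1, 11 H2A, 11 H2B, 9 H3): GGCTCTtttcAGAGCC
Form of 9 genes (all H4): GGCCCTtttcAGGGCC
Form of 9 genes (2 H1, 1 H2A, 4 H2B, 2 H3): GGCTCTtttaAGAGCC
Form of 2 genes (HIST1H4I and HIST1H4K): GGCCCTttttAGGGCC
Form of 1 gene (HIST2H2AC): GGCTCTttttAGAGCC
All 11 H4 genes with a perfect stem-loop thus carried a form starting GGCCCT, and the 45 genes of the other classes carried forms starting GGCTCT.

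The remaining 5 genes each had a word that differed from a form above by 1 base, shown in capitals. Positions are counted from 1 at the 5′ end of the stem-loop, and the base of the form comes first in the substitution.
HIST1H2AK (C3T): ggTtcttttcagagcc
HIST1H2AG (A13G): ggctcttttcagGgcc
HIST1H3E (T8C): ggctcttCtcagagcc
HIST1H2BI (T8C): ggctcttCtaagagcc
HIST1H4L (T8C): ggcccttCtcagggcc
The word of HIST1H2AG lies as close to the first H4 form (C4T) as to the form of the other H2A genes used here. HIST1H2AG and HIST1H4L were listed at 0 in all 6 libraries, HIST1H2BI was above 0 only in Ago2-IP of miR-195 cells (0.84 RPKM), and HIST1H3E stayed at or below 0.61 RPKM. HIST1H2AK reached 7.5 RPKM in Ago2-IP of miR-195 cells, within the range of the H2A genes with a perfect stem-loop.

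On GRCh37, 63 members could be placed by name, and all 61 protein-coding ones had a canonical transcript of 1 exon, with a median length of 487 bases and a median 3′UTR of 57 bases. HIST2H2BE stood apart, with a transcript of 2224 bases and a 3′UTR of 1801 bases (chr1:149856009-149858232, minus strand). HIST1H1C lies at chr6:26055968-26056698 (minus strand), HIST1H3B at chr6:26031817-26032327 (minus strand) and HIST1H4C at chr6:26104161-26104565 (plus strand). Of all 36-base words in a member's transcript, a median of 94.5% occurred once in the genome. HIST1H4J and HIST1H4K shared over 92% of such words with each other, and HIST1H2AI and HIST1H2AJ shared 64.6% and 67.3%, and HIST2H2BA, HIST2H2BF, HIST2H3D, HIST2H2BC and HIST1H2BK also had less than 50% unique words, so the values of these 9 genes depend on how shared reads were counted.

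Values of 1 gene stood in ratios of small whole numbers between libraries, which gave the smallest read numbers for the 43 members above 0 in at least 2 libraries. The true numbers are these or whole multiples of them, as may hold for HIST1H2BC and HIST1H2AD. Their numbers imply lengths of 228 and 85.5 bases where 460 and 510 are annotated. With a multiple their intervals would be too wide, with a counted length shorter than annotated they would not, and which holds was not tested. Longer lengths than annotated were implied for HIST2H2BF (4268 against 492) and HIST1H2BD (936 against 486), which a multiple cannot give. For 35 of 41 members the implied length was within 1.1-fold of the annotated one. From annotated lengths the inferred reads correspond to 23708379 to 29683502 mapped reads in the total RNA libraries and 10211742 to 16131556 in the Ago2-IP libraries, so the Ago2-IP values rest on fewer mapped reads. The 95% intervals below cover counting error of such reads only. All 12 hepatocyte-derived markers were above 0 in total RNA of every condition, with sums of 11565, 11781 and 11740 RPKM. Of 10 markers of other cells, PTPRC, CD3E and HBB were listed at 0 throughout, and the sums of 23.1, 33.7 and 37.7 RPKM were nearly all ACTA2, an actin of smooth muscle. In Ago2-IP the same sums were 993, 1581 and 973 RPKM for the 12 and 1.83, 4.67 and 2.35 RPKM for the 10.

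Values of the HIST cluster genes were low in the total RNA libraries and higher in the Ago2-IP libraries. All members together summed to 26.3, 29.2 and 53.4 RPKM in total RNA, which was 0.00821%, 0.00938% and 0.016% of the sum over all symbols. Fewer cells that make histone mRNA, less of it per cell and less of it captured in library preparation cannot be told apart in such bulk RNA. In Ago2-IP they summed to 407, 865 and 237 RPKM, or 0.543%, 0.745% and 0.352% of the sum. No member was above 10 RPKM in total RNA, where 8 reached 1 RPKM in non-transfected cells, while 25 were above 10 RPKM in some Ago2-IP library.

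**Figure D1:**
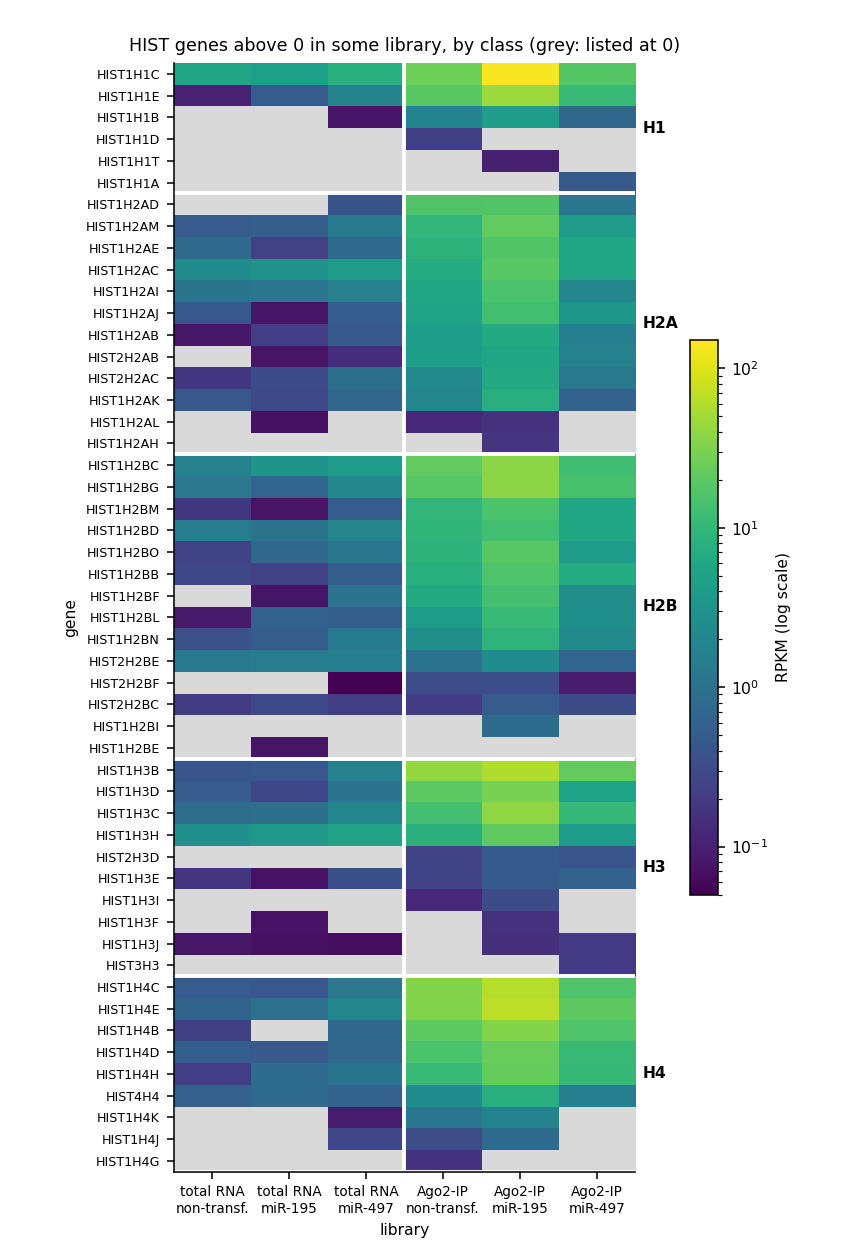
RPKM (colour, log scale) of the 51 HIST genes above 0 in some library (rows, by class) in each of the 6 libraries (columns), grey where the value is listed at 0. The Ago2-IP columns are brighter than the total RNA columns for most genes, and the brightest cell is HIST1H1C in Ago2-IP of miR-195 cells at 139 RPKM.

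Of the 66 members, 30 were above 0 in all 6 libraries, 21 in some and 15 in none. Those listed at 0 throughout were HIST2H2BA, HIST3H2A, HIST3H2BB, HIST1H2AA, HIST1H2BA, HIST1H3A, HIST1H4A, HIST1H4F, HIST1H2BH, HIST1H3G, HIST1H2BJ, HIST1H2AG, HIST1H2BK, HIST1H4I and HIST1H4L. A value of 0 in this table need not mean an absent RNA: H3F3A, a gene of the H3.3 variant used by every cell, was also listed at 0 in all 6 libraries. Of these 15 members, 10 had at least 90% of their 36-base words unique in the genome. A further 8 members were above 0 in a single library each, at 0.84 RPKM or less.

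The linker histone genes were led by HIST1H1C and HIST1H1E, which encode somatic H1 subtypes. HIST1H1C was the highest member in total RNA, at 5.58, 4.61 and 8.16 RPKM, and stood at 25.7, 139 and 18.2 RPKM in Ago2-IP. HIST1H1E was at 0.103, 0.521 and 1.77 RPKM in total RNA and at 19.4, 44.9 and 11.4 RPKM in Ago2-IP. In each condition both genes were higher in Ago2-IP than in total RNA. Over all genes compared this held for 1963 of 14101, 2686 of 14587 and 1800 of 14000. HIST1H1B was above 0 in total RNA of miR-497 cells alone (0.0817 RPKM) and at 1.88, 4.37 and 0.713 RPKM in Ago2-IP. HIST1H1A, HIST1H1D and HIST1H1T, the last a testis subtype, were each above 0 in 1 Ago2-IP library, at 0.48 RPKM or less.

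Among the H2A genes, HIST1H2AC was highest in total RNA, at 2.44, 2.93 and 4.14 RPKM, and it was at 7.07, 19.6 and 5.5 RPKM in Ago2-IP. HIST1H2AM, with 71.0% of its exon in another annotated gene, was at 0.498, 0.56 and 1.33 RPKM in total RNA and at 10.0, 22.2 and 4.05 RPKM in Ago2-IP. HIST1H2AE stood at 0.789, 0.242 and 0.802 RPKM in total RNA and at 8.74, 17.1 and 5.49 RPKM in Ago2-IP. HIST1H2AM and HIST1H2AE were thus within the range of each other in Ago2-IP and below HIST1H2AC in total RNA. HIST1H2AI was at 1.12, 1.16 and 1.65 RPKM in total RNA and at 5.7, 15 and 2.0 RPKM in Ago2-IP. HIST1H2AD had the highest Ago2-IP value of its class in non-transfected cells (16.7, 17 and 1.14 RPKM) but was inferred to rest on 23, 19 and 1 reads or a multiple of these, and 85.3% of its exon lies in another annotated gene, so its level is uncertain.

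The H2B genes had the largest class sum in total RNA, at 6.92, 9.0 and 15 RPKM. HIST1H2BC was listed at 1.66, 3.11 and 4.13 RPKM in total RNA and at 22.2, 37.6 and 12.9 RPKM in Ago2-IP, with its exon inside another annotated gene over its whole length. HIST1H2BD was at 1.44, 1.1 and 1.91 RPKM in total RNA and at 9.34, 13.4 and 5.86 RPKM in Ago2-IP. HIST1H2BG was at 1.18, 0.689 and 2.03 RPKM in total RNA and at 19.0, 37.1 and 14.8 RPKM in Ago2-IP. All 3 genes were higher in Ago2-IP than in total RNA in each condition. HIST1H2BM was low in total RNA (0.181, 0.0764 and 0.507 RPKM) and reached 9.59, 15.6 and 5.47 RPKM in Ago2-IP. HIST2H2BE was at 1.25, 1.47 and 1.6 RPKM in total RNA and at 1.07, 2.44 and 0.676 RPKM in Ago2-IP. HIST2H2BC, a pseudogene, was at 0.208, 0.293 and 0.222 RPKM in total RNA and at 0.204, 0.505 and 0.323 RPKM in Ago2-IP. HIST2H2BE was higher in Ago2-IP than in total RNA in miR-195 cells only, and HIST2H2BC in the cells with either mimic.

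The H3 genes divided into 4 with at least 1 RPKM in Ago2-IP of non-transfected cells and 8 below it. HIST1H3B was the highest member in that library, at 0.428, 0.433 and 1.71 RPKM in total RNA against 41.0, 57.1 and 22.1 RPKM in Ago2-IP. HIST1H3D stood at 0.499, 0.281 and 1.06 RPKM in total RNA and at 20.2, 30.1 and 5.21 RPKM in Ago2-IP. HIST1H3C stood at 0.881, 0.965 and 1.97 RPKM in total RNA and at 13.6, 40.3 and 10.6 RPKM in Ago2-IP. These 3 genes were higher in Ago2-IP than in total RNA in each condition. HIST1H3H had the highest total RNA level of the class, at 2.82, 3.67 and 5.32 RPKM. It was at 8.17, 21.0 and 4.17 RPKM in Ago2-IP, below total RNA in miR-497 cells alone. The exon of HIST1H3D lies over 96.6% of its length in another annotated gene.

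The H4 genes were the lowest class in total RNA, summing to 2.74, 3.54 and 6.75 RPKM, and the highest in every Ago2-IP library, summing to 118, 218 and 77.2 RPKM. HIST1H4C was at 0.518, 0.437 and 1.24 RPKM in total RNA and at 34, 60.6 and 16.6 RPKM in Ago2-IP. HIST1H4E was at 0.643, 0.994 and 1.97 RPKM in total RNA and at 32.6, 67.6 and 20.7 RPKM in Ago2-IP. HIST1H4B was at 0.226, 0 and 0.724 RPKM in total RNA and at 20.8, 34.1 and 16.6 RPKM in Ago2-IP. Each of these 3 genes was higher in Ago2-IP than in total RNA in each condition. HIST1H4D (15.4, 23.0 and 11.0 RPKM) and HIST1H4H (11.0, 22.4 and 10.8 RPKM) followed in Ago2-IP. The exon of HIST1H4H lies over 44.7% of its length in another annotated gene. HIST4H4, the member on chromosome 12, was at 0.589, 0.827 and 0.627 RPKM in total RNA and at 2.45, 7.49 and 1.59 RPKM in Ago2-IP.

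Ago2-IP was compared with total RNA gene by gene, the first step of the score by which the study looked for miRNA targets. The study then divided this ratio in mimic-transfected cells by that of non-transfected cells, and that score is not described here. In non-transfected cells 31 members were above 0 in both fractions, and 28 of them were at least 2-fold higher in Ago2-IP, against 6.69% of the 14101 genes compared. None was 2-fold lower, against 69.1% of all genes. The median ratio was 15.4 for the members and 0.326 for all genes. A further 12 members were above 0 in Ago2-IP and at 0 in total RNA, among them HIST1H2BF (6.63 RPKM in Ago2-IP) and HIST2H2AB (4.38 RPKM), and HIST1H3J was above 0 in total RNA alone. The family was proposed with these ratios in view, so the counts describe it and do not test it.

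The ratio was highest for HIST1H1E, at 188 (95% interval 46.8 to 756), which ranked 5th among the genes compared and rested on 256 inferred reads in Ago2-IP and 2 in total RNA. HIST1H3B followed at 95.8 (39.6 to 232), HIST1H4B at 91.9 (22.7 to 371) and HIST1H4C at 65.5 (27.0 to 159). In the H2A class HIST1H2AB was highest at 52.9 (7.25 to 386), and in the H2B class HIST1H2BM was highest at 52.9 (13 to 216). The upper genes thus came from all 5 classes, and their intervals overlapped. The lowest ratios of the classes were 0.852 for HIST2H2BE (0.577 to 1.26), 1.47 for HIST1H3E (0.207 to 10.4), 2.89 for HIST1H2AC (1.9 to 4.4), 4.16 for HIST4H4 (1.64 to 10.6) and 4.61 for HIST1H1C (3.69 to 5.77). HIST2H2BE, whose interval held 1 and lay below that of HIST1H1C and of HIST1H2AC, was the member whose canonical 3′UTR holds the seed complement.

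**Figure D2:**
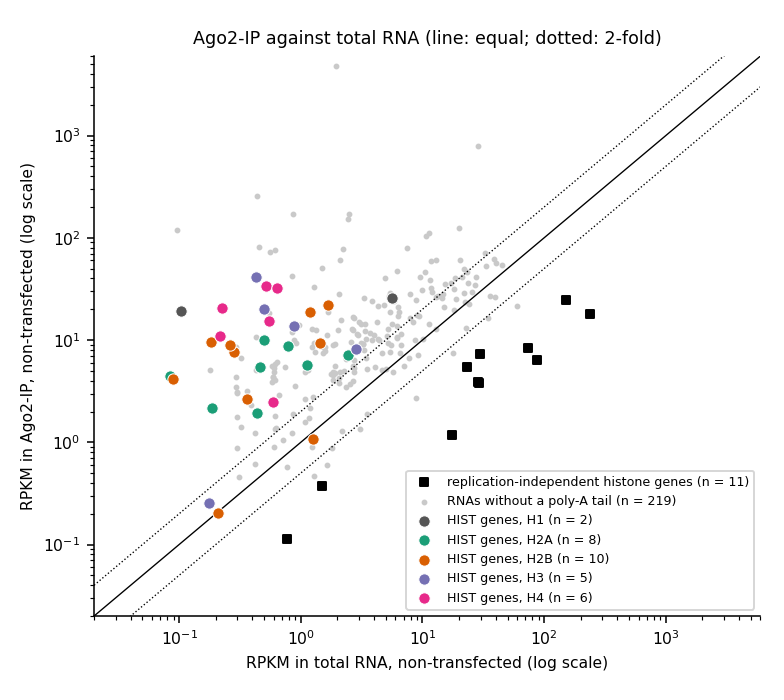
RPKM in Ago2-IP (vertical, log scale) against total RNA (horizontal, log scale) of non-transfected cells, for the 31 HIST genes above 0 in both (coloured by class), 11 replication-independent histone genes (black squares) and 219 RNAs without a poly-A tail (grey). The HIST genes lie above the line of equal values except HIST2H2BE and HIST2H2BC, and all black squares lie below it.

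By class, the median ratio in non-transfected cells was 29.5 for H1 (2 genes compared), 11.4 for H2A (8), 14.7 for H2B (10), 15.4 for H3 (5) and 50.7 for H4 (6). In miR-195 cells, 33 of 35 members were at least 2-fold higher in Ago2-IP, against 9.05% of 14587 genes, and none was 2-fold lower, against 53.7%. The median ratio was 27.3 for the members and 0.469 for all genes. The highest there was HIST1H2BM at 205 (28.5 to 1468). In miR-497 cells the count was 28 of 37, against 7.07% of 14000 genes, with a median ratio of 3.59 against 0.26. In those cells 1 member, HIST2H2BE at 0.423 (0.25 to 0.714), was at least 2-fold lower in Ago2-IP, against 73.1% of all genes, and HIST1H4B was highest at 22.9 (11.0 to 47.8). In all 3 conditions H4 had a larger ratio of summed RPKM than the other 4 classes, at 43.0, 61.5 and 11.4, and HIST2H2BE had the lowest ratio of any member compared. The fractions differ in level over all genes: with each library divided by its median over genes above 0 in all 6, which shifts the log2 ratios by 1.64, 1.12 and 2.01, members at least 2-fold higher numbered 31 of 31, 35 of 35 and 36 of 37, and 23.0%, 20.3% and 27.1% of all genes were higher while 19.4%, 15.1% and 22.5% were lower.

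**Figure D3:**
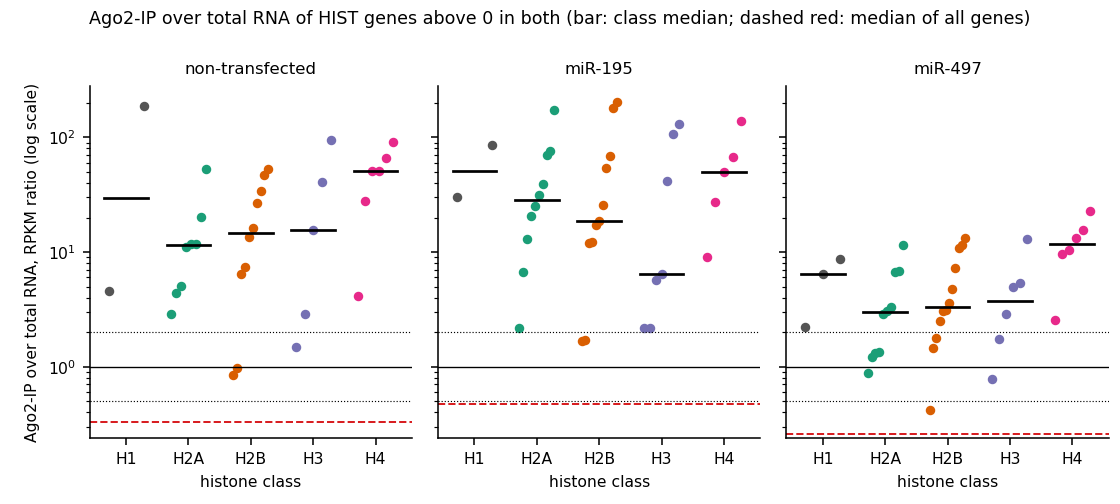
Ratio of RPKM in Ago2-IP to total RNA (vertical, log scale) for each HIST gene above 0 in both, by class, in the 3 conditions; black bars are class medians, the dashed red line is the median of all genes, and dotted lines mark 2-fold. Every class median lies above the upper 2-fold line in all 3 conditions, and the red line lies at 0.326, 0.469 and 0.26.

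The other genes of the histone pathway were mostly lower in Ago2-IP than in total RNA, as were most genes (69.1% at least 2-fold lower in non-transfected cells, with a median ratio of 0.326). All 11 replication-independent histone genes above 0 in both were at least 2-fold lower in Ago2-IP of non-transfected cells, with a median ratio of 0.136. H2AFZ, the gene of H2A.Z, was at 237, 146 and 175 RPKM in total RNA and at 18.1, 14.4 and 12 RPKM in Ago2-IP. H3F3B, which encodes H3.3, was at 151, 144 and 137 RPKM in total RNA and at 24.8, 32.2 and 15 RPKM in Ago2-IP. H1F0, which encodes the H1 form of resting cells, was at 87.8, 60.4 and 83.2 RPKM in total RNA and at 6.43, 9.17 and 4.63 RPKM in Ago2-IP. The mRNAs of H2AFZ, H3F3B and H1F0 were lower in Ago2-IP than in total RNA in every condition, as were most genes. So were those of H2AFX, H1FX and H2AFJ. Of 20 genes of histone mRNA synthesis, processing and decay, 16 were at least 2-fold lower in Ago2-IP of non-transfected cells and none 2-fold higher (median ratio 0.208), with SLBP, the stem-loop binding protein, at 69.4 RPKM in total RNA and 10.1 RPKM in Ago2-IP. NPAT, which activates histone transcription, was at 5.16 and 4.16 RPKM there. Of 18 histone chaperones 17 were 2-fold lower (median ratio 0.159), and of 32 S phase genes 29 were (median ratio 0.147). PCNA, the clamp of the replication machinery, was at 471, 279 and 314 RPKM in total RNA and at 42.3, 29.3 and 21.4 RPKM in Ago2-IP.

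RNAs that lack a poly-A tail were also higher in Ago2-IP than in total RNA. Of 219 such RNAs above 0 in both fractions of non-transfected cells, 146 were at least 2-fold higher in Ago2-IP and 8 were 2-fold lower, with a median ratio of 2.81. Their sum was 1509, 1408 and 1554 RPKM in total RNA and 10412, 19762 and 13141 RPKM in Ago2-IP, with the miR-195 library highest as for the histone genes. RMRP, RPPH1 and TERC, the RNA parts of RNase MRP, RNase P and telomerase, were chosen after their values were seen. RMRP was at 1.961, 5.34 and 34 RPKM in total RNA and at 4826, 5600 and 3511 RPKM in Ago2-IP. RPPH1 was at 2.49, 6.3 and 34 RPKM in total RNA and at 171, 863 and 401 RPKM in Ago2-IP. TERC was at 0.179, 0.151 and 0.215 RPKM in total RNA and at 5.14, 11.4 and 5.41 RPKM in Ago2-IP. All 3 were far higher in Ago2-IP, and RMRP and RPPH1 were highest in total RNA in miR-497 cells. The methods name preparation both with poly-A selection and without it but do not assign either to a library, so the part of selection in these values was not tested.

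Some histone genes also have annotated transcripts that run past the stem-loop, the kind of transcript that can end in a poly-A tail. The annotation (GENCODE release 44 on GRCh37) held a transcript reaching at least 200 bases of genome past the stem-loop for 14 of the 56 members with one. These 14 genes were HIST2H2BF, HIST2H2BE, HIST3H2A, HIST3H2BB, HIST1H2AA, HIST1H2BC, HIST1H2AC, HIST1H2BD, HIST1H2BE, HIST1H4H, HIST1H2BJ, HIST1H3H, HIST1H2BN and HIST4H4. In total RNA of non-transfected cells 5 of the 14 reached 1 RPKM, against 2 of the other 42. Their summed level there was 10.8 RPKM against 13.5 RPKM for the 42, whereas in Ago2-IP it was 64.3 RPKM against 315 RPKM. The median Ago2-IP over total RNA ratio was 5.19 for the 8 compared and 34.3 for the 19 compared of the other group in non-transfected cells, 10.5 against 45.5 in miR-195 cells, and 2.54 against 6.42 in miR-497 cells. The groups overlapped: HIST1H4H, with a transcript past the stem-loop, had a ratio of 50.7 (12.4 to 207), and HIST1H1C, without one, had 4.61. HIST1H3H (2.89), HIST1H2AC (2.89) and HIST2H2BE (0.852), all with such a transcript, had the lowest ratios in the plot of the 2 groups.

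**Figure D4:**
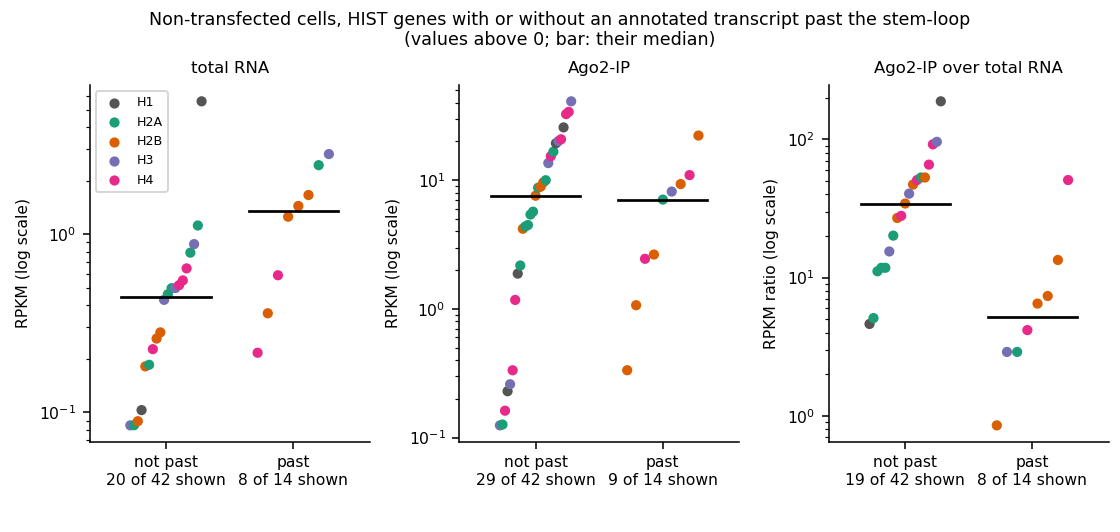
RPKM in total RNA, RPKM in Ago2-IP and the ratio of Ago2-IP to total RNA (vertical, log scales) in non-transfected cells for HIST genes without (left) or with (right) an annotated transcript at least 200 bases past the stem-loop, each point a gene coloured by class and bars the medians of values above 0. The right group sits higher in total RNA and lower in the ratio, where the medians are 34.3 and 5.19.

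The miR-195 mimic was set against non-transfected cells in total RNA to ask how mRNA levels differ with it. Of 31 members above 0 in both, 5 were at least 2-fold higher, against 5.81% of 14740 genes, and 4 were 2-fold lower, against 3.2%. The median ratio was 1.1 for the members and 1.01 for all genes. The 5 were HIST1H2BL (6.74, 0.843 to 53.9), HIST1H1E (5.06, 1.13 to 22.6), HIST1H4H (3.79, 0.82 to 17.6), HIST1H2BO (2.81, 0.773 to 10.2) and HIST1H2AB (2.53, 0.263 to 24.3), and the 4 were HIST1H2AJ, HIST1H2AE, HIST1H2BM and HIST1H3E. These rested on 12 inferred reads or fewer per library, and only the intervals of HIST1H1E and HIST1H2AE left out a ratio of 1. With a pseudocount of 1, or a minimum of 1 RPKM in both libraries, 0 members were past 2-fold. Among the 6 members with at least 1 RPKM in all libraries, HIST1H2BC had the largest ratio, at 1.87 (0.853 to 4.11), and HIST1H2BD the smallest, at 0.764 (0.462 to 1.26), and every interval of the 6 held 1.

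With the miR-497 mimic the histone genes were higher in total RNA. Of 32 members above 0 in both libraries, 31 had a higher value than in non-transfected cells, as had 8449 of 14768 genes. At least 2-fold higher were 16 members, against 6.67% of the genes compared, while none was 2-fold lower, against 2.11%. The median ratio was 2.06 for the members and 1.06 for all genes. A further 7 members were listed at 0 in non-transfected cells and above 0 in miR-497 cells, among them HIST1H2BF (1.05 RPKM). Dividing each library by its median left 15 of the 16, but a pseudocount of 1 left 2 of 39 members at least 2-fold higher, and a minimum of 1 RPKM in both libraries left 1 of 8, HIST1H2BC, so the count rests on low values. HIST1H1E had the largest ratio, at 17.2 (4.16 to 70.9) from 2 and 43 inferred reads, and ranked 4th of all genes compared. HIST1H3B was at 3.99 (1.53 to 10.4), HIST1H4E at 3.06 (1.25 to 7.52) and HIST1H3C at 2.24 (1.09 to 4.6), each from 5 to 28 reads per library. Among the 6 members with at least 1 RPKM in all libraries, HIST1H2BC (2.48, 1.17 to 5.27), HIST1H3H (1.89, 1.26 to 2.84) and HIST1H2AC (1.69, 1.12 to 2.56) were highest, and HIST1H1C was at 1.46 (1.15 to 1.86). Class sums were 1.76-fold (H1), 1.85-fold (H2A), 2.17-fold (H2B), 2.14-fold (H3) and 2.46-fold (H4) those of non-transfected cells, so the difference was found in all 5 classes.

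The lists of S phase genes, chaperones, replication-independent histone genes and histone mRNA processing genes had median ratios below 1 in the same comparison. Of 32 S phase genes, 28 had a lower value in total RNA of miR-497 cells than in non-transfected cells, with a median ratio of 0.719. All 32 had a lower value in miR-195 cells, with a median ratio of 0.595. Over all genes, 6319 of 14768 (miR-497) and 7114 of 14740 (miR-195) had a ratio of 1 or less. The replication-independent histone genes had medians of 0.795 (miR-195) and 0.948 (miR-497), and 5 of 11 were higher in miR-497 than in non-transfected cells, among them H2AFX (1.29), H1FX (1.4) and H2AFJ (1.41). The medians of the chaperones were 0.746 and 0.902. SLBP was at 69.4, 57.9 and 54.8 RPKM. For the RNAs without a poly-A tail the medians were 0.913 and 1.0, and the ratios of RMRP (2.72 and 17.3) and RPPH1 (2.53 and 13.7), chosen after their values were seen, were above the histone medians of 1.1 and 2.06.

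**Figure D5:**
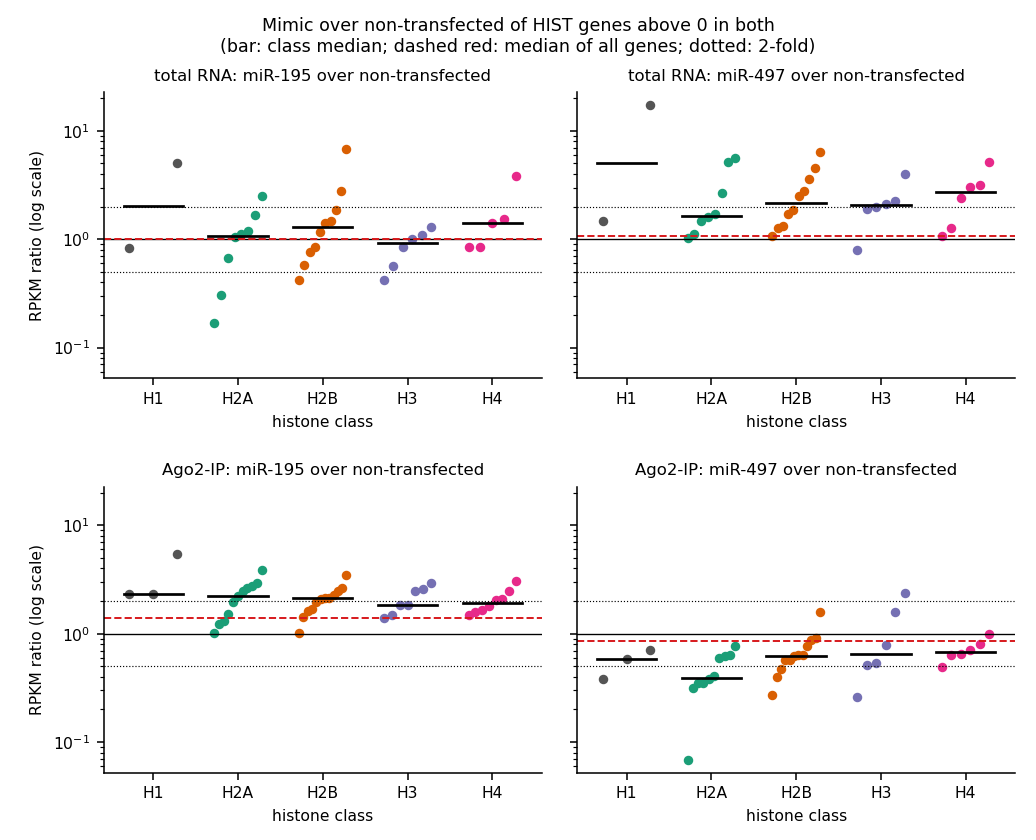
Ratio of RPKM in mimic-treated to non-transfected cells (vertical, log scale) for each HIST gene above 0 in both, by class, in total RNA (top) and Ago2-IP (bottom) for miR-195 (left) and miR-497 (right); black bars are class medians, the dashed red line is the median of all genes and dotted lines mark 2-fold. The points lie mostly above the red line in total RNA of miR-497 cells and in Ago2-IP of miR-195 cells, and mostly below it in Ago2-IP of miR-497 cells.

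In Ago2-IP the miR-195 library held the highest histone values. All 41 members above 0 in both libraries had a higher value with the miR-195 mimic than in non-transfected cells, as had 11173 of 14291 genes. The median ratio was 2.1 for the members and 1.39 for all genes. At least 2-fold higher were 23 of the 41 (15 of 48 with a pseudocount of 1), against 23.7% of 14291 genes, and none was 2-fold lower, against 2.58%. HIST1H1C had the largest ratio, at 5.39 (4.77 to 6.09) from 317 and 1383 inferred reads, followed by HIST1H2AK at 3.87 (2.17 to 6.93) and HIST1H2BN at 3.46 (2.08 to 5.77). Among the 6 members with at least 1 RPKM in all libraries, HIST1H2AC (2.78, 2.07 to 3.72) and HIST1H2AI (2.64, 1.85 to 3.76) came after HIST1H1C, and HIST1H2BD (1.44, 1.15 to 1.8) was lowest. The interval of HIST1H1C lay above those of the others of these 6. Much of the difference was shared by all genes: with each library divided by its median, a shift of the log2 ratios by -0.52, the members at least 2-fold higher numbered 6 of 41 and their median log2 ratio was 0.56, beside 9.05% of all genes higher and 7.64% lower. In the same comparison the median ratio on the deposited scale was 1.48 for the RNAs without a poly-A tail, 2.16 for the hepatocyte-derived markers, 1.43 for the replication-independent histone genes and 0.816 for the S phase genes.

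The miR-497 library of Ago2-IP held the lowest histone values. Of 37 members above 0 in both libraries, 34 had a lower value than in non-transfected cells, against 9909 of 13866 genes with a ratio of 1 or less. At least 2-fold lower were 12 of the 37, against 6.27% of the genes compared. HIST1H3E was the single member 2-fold higher, from 2 and 3 reads, against 3.48%. The median ratio was 0.627 for the members and 0.855 for all genes, and 10 members remained 2-fold lower with each library divided by its median. The lowest ratio was that of HIST1H2AD, at 0.0687 (0.00928 to 0.509) from 23 reads and 1 read. A multiple of these would narrow the interval, while a counted length shorter than annotated would leave it. HIST1H3D was at 0.258 (0.172 to 0.388) from 165 and 27 reads, HIST1H2AI at 0.351 (0.177 to 0.697), HIST1H2AM at 0.405 (0.25 to 0.653) and HIST1H4C at 0.489 (0.373 to 0.64). At the other end HIST1H4H (0.984, 0.673 to 1.44) and HIST1H2BB (0.919, 0.594 to 1.42) had intervals that held 1. By class the median was 0.394 for H2A and between 0.586 and 0.682 for the other 4. The RNAs without a poly-A tail went the other way, with a median ratio of 1.26, while the replication-independent histone genes were at 0.7 and the S phase genes at 0.618. The miR-195 and miR-497 comparisons share the non-transfected library, so their values are given side by side and not set against each other.

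Across the 3 Ago2-IP libraries, miR-195 was highest for 44 of the 50 members above 0 in any of them, and miR-497 was lowest for 38. Over the 16275 genes above 0 in any of them these shares were 69.7% and 57.5%, so this order was the common one. In total RNA miR-497 was highest for 35 of 42 members, against 41.3% of 16683 genes. Spearman's rho of the non-transfected Ago2-IP levels was 0.966 with the miR-195 ones (41 members above 0 in both) and 0.906 with the miR-497 ones (37 members). Between the fractions it was 0.275 in non-transfected (31 members), 0.551 in miR-195 (35) and 0.675 in miR-497 cells (37). These correlations are across genes, which are not independent replicates and share libraries, and the total RNA values of most members rest on few reads.

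The promoters (250 bases before to 50 after the start, RefSeq, GRCh38.p14) were read for the 59 members in the table, on both strands. The octamer ATTTGCAT was found in 11 of 14 H2A and 14 of 18 H2B promoters, in 1 of 10 H3 promoters and in none of 6 H1 or 11 H4 promoters, against 1.8% of all 27305 promoters. The window of HIST1H3D, 1 of the 10 H3 windows, appears to lie at HIST1H2AD (next paragraph), and the H3 gene with the match was not identified here. CCAAT was found in every H1, H2A, H2B and H3 promoter and in 3 of 11 H4 promoters, against 35.7% of all, and TATAAA in 39 of the 59, against 12%. Of the 33 members with at least 1 RPKM in Ago2-IP of non-transfected cells 16 had the octamer, as had 26 of all 59. HIST1H2BC and HIST1H3B are shown as an H2B promoter with the octamer and an H3 promoter without it, with the motifs in capitals.
HIST1H2BC promoter (chr6:26123877-26124176, minus strand): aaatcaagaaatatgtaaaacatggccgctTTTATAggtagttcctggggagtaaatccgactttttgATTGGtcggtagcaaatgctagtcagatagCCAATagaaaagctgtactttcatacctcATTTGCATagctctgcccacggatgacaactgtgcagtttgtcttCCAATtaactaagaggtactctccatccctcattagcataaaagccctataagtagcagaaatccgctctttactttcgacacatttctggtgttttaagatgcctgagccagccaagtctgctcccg
HIST1H3B promoter (chr6:26032050-26032349, minus strand): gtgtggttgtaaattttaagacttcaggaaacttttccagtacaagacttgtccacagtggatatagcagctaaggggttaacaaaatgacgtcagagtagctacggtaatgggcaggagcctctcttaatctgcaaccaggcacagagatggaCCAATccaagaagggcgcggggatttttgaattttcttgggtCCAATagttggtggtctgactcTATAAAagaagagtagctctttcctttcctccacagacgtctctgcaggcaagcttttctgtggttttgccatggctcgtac
A match is a description of letters in this window and not of a factor bound there.

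In 12 pairs of members the promoter windows overlapped on opposite strands, by 253 to 293 bases, and 11 of these paired an H2A with an H2B gene. The remaining pair, HIST1H3D with HIST1H2BF, had the same overlap of 278 bases as HIST1H2AD with HIST1H2BF. On GRCh37 HIST1H3D (chr6:26197012-26197514) and HIST1H2AD (chr6:26199012-26199521) lie apart, so the window of HIST1H3D appears to be that of HIST1H2AD. In 3 pairs (HIST3H2A with HIST3H2BB, HIST1H2AA with HIST1H2BA, HIST1H2BJ with HIST1H2AG) both genes were listed at 0 in all 6 libraries. In the others both genes were above 0 in every Ago2-IP library. The pair HIST1H2BC and HIST1H2AC was at 22.2 and 7.07 RPKM in Ago2-IP of non-transfected cells and at 1.66 and 2.44 RPKM in total RNA. HIST1H2BG and HIST1H2AE were at 19.0 and 8.74 RPKM in that Ago2-IP library, HIST1H2BO and HIST1H2AM at 8.91 and 10.0 RPKM, and HIST1H2BM and HIST1H2AJ at 9.59 and 5.41 RPKM. Over the 8 H2A and H2B pairs above 0 in that library, the H2B gene was the higher in 4, so neither class was regularly above its partner.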

How the data were processed

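Single reads of 36 bases were aligned to hg19 with ELANDv2, and CASAVA 1.7 gave the deposited RPKM values, which the authors scaled by transcript length and by mapped reads. Annotation and read filters are not given in the sources used here. The table held 21891 lines, and the lines of each of 28 repeated symbols, none of them a member, were replaced by their mean. The members and all lists were chosen with earlier results of these data known. Ratios used values above 0 without a pseudocount, and a fold of 2 in either direction was counted, over members and over all genes, with no test. Named genes were the highest by level and ratio in each class, the largest differences, near-identical pairs, members at 0 and members above 10 RPKM, and any other gene named was chosen after its values were seen. Medians of ratios were taken on the log2 scale. Read numbers were inferred as the smallest whole numbers, checked on simulated data, where 98.7% of genes gave an answer. That share counts answers given, not answers equal to the simulated reads. Positions, 36-base words and stem-loops came from GRCh37 with GENCODE release 44, sequences of promoters and miRNAs from RefSeq. Alternatives were a pseudocount of 0.1 or 1, a minimum of 1 RPKM, median scaling, repeated symbols kept apart, near-identical copies left out, small RNA symbols left out of all genes, and reads from annotated lengths. Python 3.11.15, numpy 2.4.6 and pandas 2.3.3 were used.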

Additional observations from a re-analysis of the deposited data

How the results depend on the processing

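With 1 library per group no replicate could be left out. No paired analysis was possible because the groups of each comparison share only replicate number 1. Pairing the fractions over the 3 conditions was not run, since conditions are not replicates and the family was chosen by that contrast. Of 92 alternative values 16 moved and none changed sign. The other 76 are no sign of stability: 14 keep apart repeated symbols, which no member has, and medians were held to the wide counting interval of single genes, so that a fall of the median log2 ratio for miR-497 in total RNA from 1.04 to 0.46 with a pseudocount of 1 passed. With at least 1 RPKM in both libraries, the median log2 ratio of members for Ago2-IP over total RNA was 2.28 in non-transfected and 3.59 in miR-195 cells, and members past 2-fold were 7 (non-transfected), 6 (miR-195) and 14 (miR-497), with 0 (miR-195) and 1 (miR-497) over non-transfected cells in total RNA. Fewer members were compared there, 8, 7 and 18 for the fractions and 7 and 8 for the mimics. A pseudocount of 1 gave 2.11 (non-transfected) and 2.73 (miR-195) for the fractions, 0 (miR-195) and 2 (miR-497) members past 2-fold in total RNA and 15 in Ago2-IP of miR-195 cells, since it pulls low values together. Median scaling gave 5.59 (non-transfected) and 3.86 (miR-497) for the fractions, and 0.56 with 6 members for miR-195 in Ago2-IP. The total RNA levels of most members rest on fewer than 20 inferred reads, so differences there were mostly not detectable at this depth.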
